A study of Mus musculus with 9 samples.

Results

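Mast cell genes were followed in RNA-seq of heart muscle cells isolated on the day of birth, as 6 genes chosen by symbol out of the 18738 genes in the table. The 6 are Cma1, Mcpt4, Cpa3 and Tpsb2, which encode granule proteases, Kit, which encodes the receptor for stem cell factor, and Hdc, which encodes the enzyme that makes histamine. All 6 were found, and all 6 passed the filter of a mean level of 1 TPM or more (transcripts of a gene per fixed number of transcripts, adjusted for length), which left 13655 genes to be tested. The pups were wild-type C57BL/6J mice on postnatal day 0. Throughout pregnancy their mothers ate, by random assignment, ND, the normal diet, sHFD, a slight high-fat diet, or HFD, the full high-fat diet. Each diet had 3 libraries, and all 9 were labelled as heart cardiomyocytes. The labels give neither the fat content of the diets nor whether the 3 libraries of a diet came from separate litters, so p-values measure only the spread between these libraries, which may be technical.

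Mast cells are tissue-resident immune cells that store proteases, histamine and the proteoglycan serglycin in dense granules and release them when activated, classically through IgE bound to its receptor. They develop from blood-borne progenitors and depend on KIT signalling to survive. In the heart they lie mainly along vessels and in the outer layers, and chymase released there can convert angiotensin I to angiotensin II, independently of angiotensin-converting enzyme.

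The libraries carried heart muscle transcripts at high level and transcripts of other heart cells beside them. The summed level of 10 cardiomyocyte markers was 21900 to 38000 TPM in ND libraries, 38200 to 51100 TPM in sHFD libraries and 26600 to 32800 TPM in HFD libraries. Endothelial markers, 6 in number, summed to 2410 to 3850 TPM in ND libraries, 2470 to 2680 TPM in sHFD and 2740 to 3280 TPM in HFD, and 8 macrophage markers summed to 270 to 338, 171 to 257 and 173 to 226 TPM in the same diets. ND replicate 1 stood apart from its diet over all genes tested. Its mean Pearson correlation of log2(TPM + 1) was 0.980 with the HFD libraries and 0.962 with the other ND libraries. ND replicates 2 and 3 also correlated more with another diet than with their own. For them the values were 0.987 and 0.981 with the sHFD libraries and 0.965 and 0.976 with the other ND libraries. In the mast cell genes ND replicate 1 did not lie with HFD, as the values of each library show.

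Cma1 encodes a chymase that mouse connective tissue mast cells store. Its level was 34.0, 38.2 and 27.9 TPM in ND libraries, 15.9, 18.5 and 19.2 TPM in sHFD libraries and 14, 16.9 and 17.7 TPM in HFD libraries, for replicates 1 to 3 in that order. Every library of both high-fat diets lay below every ND library, and the 2 high-fat diets overlapped.

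Mcpt4 encodes a second chymase, which in mice carries most of the chymotrypsin-like activity of connective tissue mast cells. It was the least abundant member, at 9.96, 7.64 and 8.18 TPM in ND, 5.58, 7.37 and 4.39 TPM in sHFD and 3.28, 2.84 and 2.73 TPM in HFD libraries. The 3 diets did not overlap in Mcpt4, with HFD lowest and ND highest.

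Cpa3 encodes carboxypeptidase A3, a granule enzyme that trims C-terminal residues from peptides. It was 25.3, 34.6 and 21.1 TPM in ND, 18.8, 24.2 and 29.4 TPM in sHFD and 7.70, 10.7 and 11.2 TPM in HFD libraries. Here the sHFD libraries overlapped the ND libraries and the HFD libraries lay below both.

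Tpsb2 encodes a beta-tryptase, a granule protease that is held as a tetramer by heparin. Its level was 47.9, 42.0 and 29.3 TPM in ND, 25.3, 30.6 and 33.0 TPM in sHFD and 18.5, 21.8 and 23.9 TPM in HFD libraries, so that HFD lay below both other diets and sHFD overlapped ND. Tpsb2 has a close tandem copy, Tpsab1, which was looked for and is not among the 18738 genes under that symbol. How reads were divided between the copies is unknown, so the level of Tpsb2 is uncertain.

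Kit was 33.9, 40.6 and 28.3 TPM in ND, 21.2, 44.5 and 25.7 TPM in sHFD and 21.9, 25.1 and 27.6 TPM in HFD libraries. Its highest and its lowest value were both in sHFD libraries, which spanned the other diets. Hdc, histidine decarboxylase, was 27.5, 18.6 and 25.1 TPM in ND, 16.9, 20.4 and 19.4 TPM in sHFD and 15.3, 16.6 and 17.5 TPM in HFD libraries. For both genes the HFD libraries lay below all ND libraries, by a narrow gap, and overlapped the sHFD libraries.

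**Figure D1:**
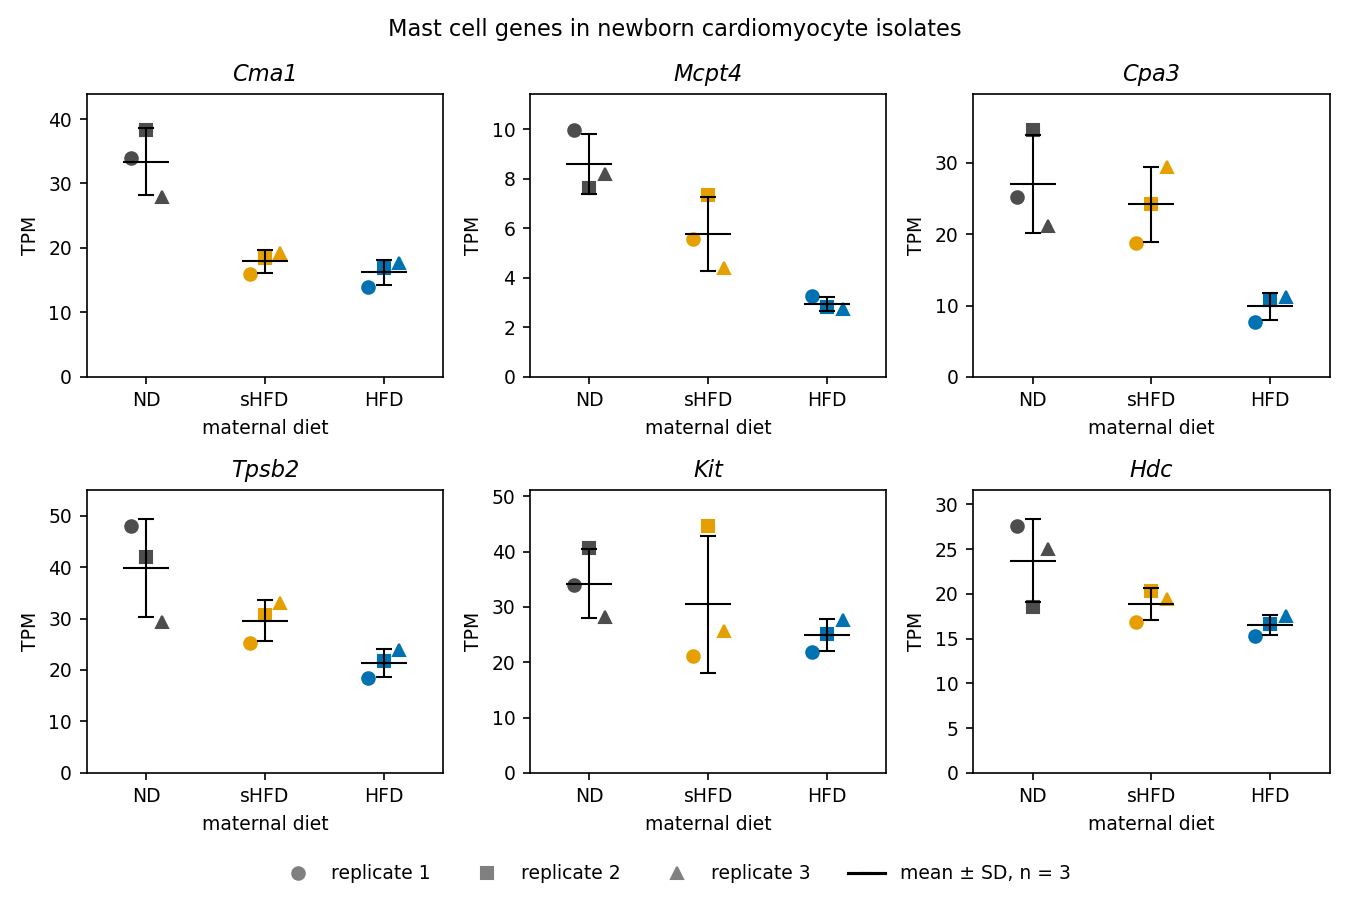
Level of the 6 mast cell genes in TPM (y axis, from 0) in each library by maternal diet (x axis), with 3 replicates per diet and bars for the mean ± SD. Cpa3 lies between 7.70 and 11.2 TPM in HFD libraries and at 18.8 TPM or more elsewhere, while Cma1 lies at 19.2 TPM or less in both high-fat diets and at 27.9 TPM or more in ND.

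TPM is adjusted for transcript length, so that levels may be set against each other between genes. In ND libraries the order of the means was Tpsb2 at 39.8 ± 9.49, Kit at 34.2 ± 6.18, Cma1 at 33.4 ± 5.17, Cpa3 at 27.0 ± 6.87, Hdc at 23.7 ± 4.63 and Mcpt4 at 8.59 ± 1.21 TPM (SD, n = 3 each). Neighbours in that order differed by less than the larger of their SDs, other than Hdc and Mcpt4. In HFD libraries the order was Kit, Tpsb2, Hdc, Cma1, Cpa3 and Mcpt4, at 24.9 ± 2.87, 21.4 ± 2.74, 16.5 ± 1.14, 16.2 ± 1.96, 9.89 ± 1.91 and 2.95 ± 0.291 TPM (SD, n = 3 each), and only Hdc and Cma1 differed by less than the larger of their SDs. Means over all 9 libraries placed Tpsb2 above 68.7% of the genes in the table and Mcpt4 above 41.6%.

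The genes are spread over 5 chromosomes, with the chymase genes as neighbours. On GRCm38, as annotated by RefSeq, Cma1 (Entrez 17228) spans positions 55941451 to 55944675 and Mcpt4 (Entrez 17227) positions 56059744 to 56062310 of chromosome 14. The 115.1 kb between them holds Mcpt-ps1, Cma2, Gm5801, Mcpt1, Mcpt2 and Mcpt9. Cpa3 (Entrez 12873) lies on chromosome 3 at 20215616 to 20242209, Tpsb2 (Entrez 17229) on chromosome 17 at 25366308 to 25368096, Kit (Entrez 16590) on chromosome 5 at 75574987 to 75656722 and Hdc (Entrez 15186) on chromosome 2 at 126593659 to 126624025.

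The 250 bases upstream of a RefSeq start site (GRCm38.p6) are shown for 3 of the granule protease genes, since these genes carry the largest differences between diets. They run 5′ to 3′ along the gene, and capitals mark matches to AGATAA or TGATAA, letters that GATA factors bind in mast cell genes, searched on both strands.
Mcpt4 (chr14:56062311-56062560, minus strand): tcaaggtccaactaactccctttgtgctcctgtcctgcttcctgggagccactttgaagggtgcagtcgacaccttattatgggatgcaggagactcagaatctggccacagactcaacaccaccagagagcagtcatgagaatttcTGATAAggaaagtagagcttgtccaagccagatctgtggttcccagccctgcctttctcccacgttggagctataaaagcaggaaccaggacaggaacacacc
Cpa3 (chr3:20242182-20242431, minus strand): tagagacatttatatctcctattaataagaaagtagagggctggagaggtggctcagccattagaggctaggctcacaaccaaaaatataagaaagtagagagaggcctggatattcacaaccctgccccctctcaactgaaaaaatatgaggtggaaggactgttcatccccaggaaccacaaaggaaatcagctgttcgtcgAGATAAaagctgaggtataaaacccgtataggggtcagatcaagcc
Cma1 (chr14:55944676-55944925, minus strand): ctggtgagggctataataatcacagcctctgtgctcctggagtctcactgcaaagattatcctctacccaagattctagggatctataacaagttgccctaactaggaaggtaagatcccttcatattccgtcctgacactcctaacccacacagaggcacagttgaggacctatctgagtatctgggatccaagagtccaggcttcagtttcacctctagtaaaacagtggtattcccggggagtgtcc
Mcpt4 holds TGATAA 98 to 103 bases upstream of the start, and Cpa3 holds AGATAA 41 to 46 bases upstream, in a window that overlaps the outer end of the annotated gene. Neither string is in the window of Cma1, nor in those of Kit and Hdc, of which the Hdc window lies wholly inside the annotated gene. A match to either was found in 17.0% of the 27025 upstream windows of the same length. The E-box strings CATGTG and CACGTG, bound by MITF, the melanocyte and mast cell factor, were found in 0 of these 5 windows and in 17.6% of all windows. These are matches of letters and not binding sites.

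The 4 granule protease genes were lower in HFD than in ND isolates, and Kit and Hdc did not pass the test. Cpa3 averaged 9.89 ± 1.91 TPM in HFD and 27.0 ± 6.87 TPM in ND libraries (SD, n = 3 each), and its log2 fold change was -1.35 (SE 0.23, adjusted p = 0.00938 in limma). Mcpt4 averaged 2.95 ± 0.291 TPM in HFD and 8.59 ± 1.21 TPM in ND (log2 -1.28, SE 0.21, adjusted p = 0.00921). Cma1 averaged 16.2 ± 1.96 TPM in HFD and 33.4 ± 5.17 TPM in ND (log2 -0.99, SE 0.18, adjusted p = 0.0105), and Tpsb2 averaged 21.4 ± 2.74 TPM in HFD and 39.8 ± 9.49 TPM in ND (log2 -0.84, SE 0.20, adjusted p = 0.0233). Hdc differed by a log2 of -0.48 (95% interval -0.88 to -0.08, adjusted p = 0.103) and Kit by -0.44 (95% interval -0.96 to 0.09, adjusted p = 0.248).

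These are fold changes of log2(TPM + 1), fitted with limma to all 9 libraries and adjusted over the 13655 genes tested after Benjamini and Hochberg, and a gene passed below 0.05. Of the 6 members 4 fell and 0 rose in HFD vs ND, where 9.59% of all genes tested fell and 1.28% rose, 10.9% together. In all 6 the HFD libraries lay wholly below the ND libraries, as they did in 22.9% of all genes tested. The members, and the gene lists below, were chosen with earlier results of these data known. An excess over the share of all genes is therefore no independent result. The median log2 fold change of the members was -0.92 and that of all genes tested was -0.14, and relative to that of all genes Cpa3, Mcpt4, Cma1 and Tpsb2 differed by -1.21, -1.14, -0.86 and -0.70. All 4 calls held when the libraries were scaled to a common median ratio or quantile normalized, settings that changed the split of all calls from 175 higher and 1309 lower to 642 and 997 and to 427 and 637. In an isolate of mixed cells, fewer mast cells and less of these transcripts per mast cell cannot be told apart.

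Single libraries decided these calls. Without HFD replicate 2 the test called 32 genes of the table and 0 members, with adjusted p of 0.0535 for Cpa3, 0.0642 for Mcpt4 and Cma1 and 0.0937 for Tpsb2, while 4 members kept an unadjusted limma p under 0.05. Without HFD replicate 1 it called 2 members, Cma1 and Tpsb2 missing the threshold (adjusted p = 0.052 and 0.0925), and 2 without ND replicate 3, Mcpt4 and Tpsb2 missing it (adjusted p = 0.0585 and 0.0575). Tpsb2 also missed it without ND replicate 2 (adjusted p = 0.0608) and when only the HFD and ND libraries were fitted (adjusted p = 0.0592). Without ND replicate 1, the library nearest to HFD over all genes, the same 4 members were called. All 6 members kept a negative fold change under each of the 17 alternatives, with Cpa3 between -1.5 and -1.12 and Tpsb2 between -1.04 and -0.68.

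**Figure D2:**
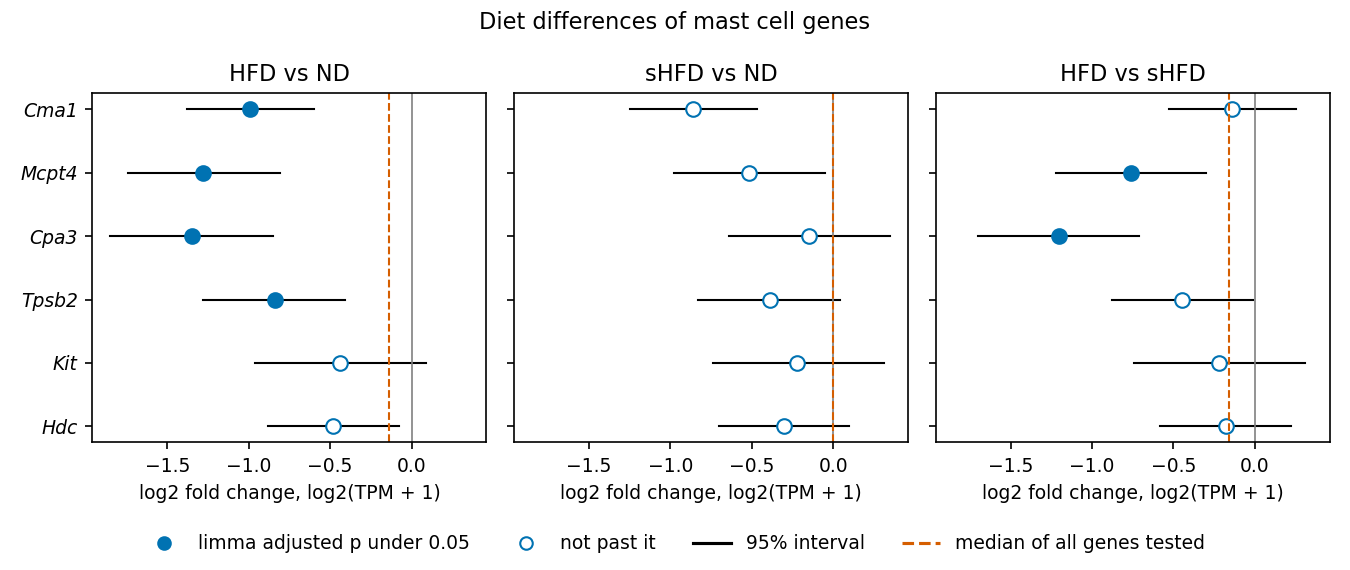
Log2 fold changes of log2(TPM + 1) for the 6 mast cell genes (rows) in HFD vs ND, sHFD vs ND and HFD vs sHFD, with 95% intervals from limma and a dashed line at the median of all genes tested. Filled points passed an adjusted p of 0.05, which 4 genes did in HFD vs ND, 0 in sHFD vs ND and 2 in HFD vs sHFD.

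Against sHFD, Cpa3 and Mcpt4 were lower in HFD isolates and the other 4 members did not pass. Cpa3 averaged 9.89 ± 1.91 TPM in HFD and 24.2 ± 5.28 TPM in sHFD libraries (SD, n = 3 each), and its log2 fold change of -1.20 (SE 0.23, adjusted p = 0.00294 in limma) passed under all 17 alternatives. Mcpt4 averaged 2.95 ± 0.291 TPM in HFD and 5.78 ± 1.5 TPM in sHFD (log2 -0.76, SE 0.21, adjusted p = 0.0172) and missed the threshold when HFD replicate 2 (adjusted p = 0.0616) or sHFD replicate 2 (adjusted p = 0.0678) was left out and under quantile normalization (adjusted p = 0.142). Tpsb2 had a log2 difference of -0.45 (95% interval -0.88 to -0.01, adjusted p = 0.0998), which passed when only these 2 diets were fitted (adjusted p = 0.0497). For Cma1 the difference was -0.14, with a 95% interval from -0.53 to 0.25 (adjusted p = 0.581), and its sign turned under median-ratio scaling (0.02) and quantile normalization (0.11). Kit differed by -0.22 (95% interval -0.74 to 0.31) and Hdc by -0.18 (95% interval -0.58 to 0.22). The 2 members that fell stand beside 23.9% of all genes tested that fell and 10.3% that rose in this comparison, 34.2% together, and the members' median log2 fold change was -0.33 where that of all genes was -0.16. HFD libraries lay wholly below sHFD libraries in 3 members, Cpa3, Mcpt4 and Tpsb2, and in 34.7% of all genes tested.

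No member passed limma's test between sHFD and ND, a comparison in which 1 gene of the table, or 0.00732%, passed. At an unadjusted p under 0.05 there were 2 members and 1005 genes of the table. Cma1 averaged 17.9 ± 1.74 TPM in sHFD and 33.4 ± 5.17 TPM in ND libraries (SD, n = 3 each), and the log2 difference was -0.86 (95% interval -1.25 to -0.47, adjusted p = 0.504, and from 0.0566 to 1.0 under the alternatives). Mcpt4 averaged 5.78 ± 1.5 TPM in sHFD and 8.59 ± 1.21 TPM in ND (log2 -0.52, 95% interval -0.98 to -0.05, adjusted p = 0.672). Cpa3 had a difference of -0.15 (95% interval -0.64 to 0.35), whose sign turned without ND replicate 2 and without sHFD replicate 1, and Tpsb2, Hdc and Kit had differences of -0.39, -0.30 and -0.22. In 2 members, Cma1 and Mcpt4, the sHFD libraries lay wholly below the ND libraries, as in 4.9% of all genes tested, and in 0 members they lay wholly above, as in 4.5%. The comparisons with ND share the ND libraries, and those with sHFD share the sHFD libraries, so their values are not independent of each other.

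The granule proteases together took 43.5, 52.3 and 55.6 TPM in HFD libraries, against 117, 122 and 86.6 TPM in ND libraries. In sHFD libraries they took 65.6, 80.7 and 86.0 TPM, all below the lowest ND library, the highest of them only just. These sums averaged 109 ± 19.3 TPM in ND, 77.5 ± 10.6 TPM in sHFD and 50.5 ± 6.27 TPM in HFD (SD, n = 3 each). ND replicate 1, at 117 TPM, was not near the HFD libraries in this sum.

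Ratios between the members differed among libraries, and that of chymase Cma1 to carboxypeptidase Cpa3 did not overlap between any of the 3 diets. This ratio of TPM was 1.34, 1.11 and 1.32 in ND, 0.845, 0.762 and 0.654 in sHFD and 1.82, 1.57 and 1.58 in HFD libraries. It was lowest in sHFD, where Cma1 was near its HFD level and Cpa3 near its ND level. Its log2 value was 0.40 higher in HFD than in ND, 1.14 higher in HFD than in sHFD and differed by -0.74 between sHFD and ND, each with an exact two-sided permutation p of 0.1, the smallest that 3 against 3 libraries can give. The ratio was singled out after all 15 ratios between members had been seen, and the smallest Benjamini-Hochberg value over the 45 exact tests was 0.205.

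Other ratios separated fewer of the diets. Cpa3 over Tpsb2 was 0.416, 0.492 and 0.470 in HFD libraries, against 0.528, 0.822 and 0.720 in ND libraries and 0.745, 0.791 and 0.890 in sHFD libraries. Cma1 over Tpsb2 was 0.630, 0.603 and 0.582 in sHFD libraries, against 0.709, 0.910 and 0.952 in ND libraries, and HFD libraries lay between 0.741 and 0.774. Cma1 over Mcpt4, the pair of chymases, overlapped in every comparison, from 3.41 to 5.00 in ND, 2.51 to 4.38 in sHFD and 4.27 to 6.49 in HFD. Of the 15 ratios, 10 did not overlap between HFD and ND, 8 between HFD and sHFD and 4 between sHFD and ND. The ratios share the same few genes, so they are not independent of each other. No share was computed for ratios between other genes, so these counts are no result about the members.

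**Figure D3:**
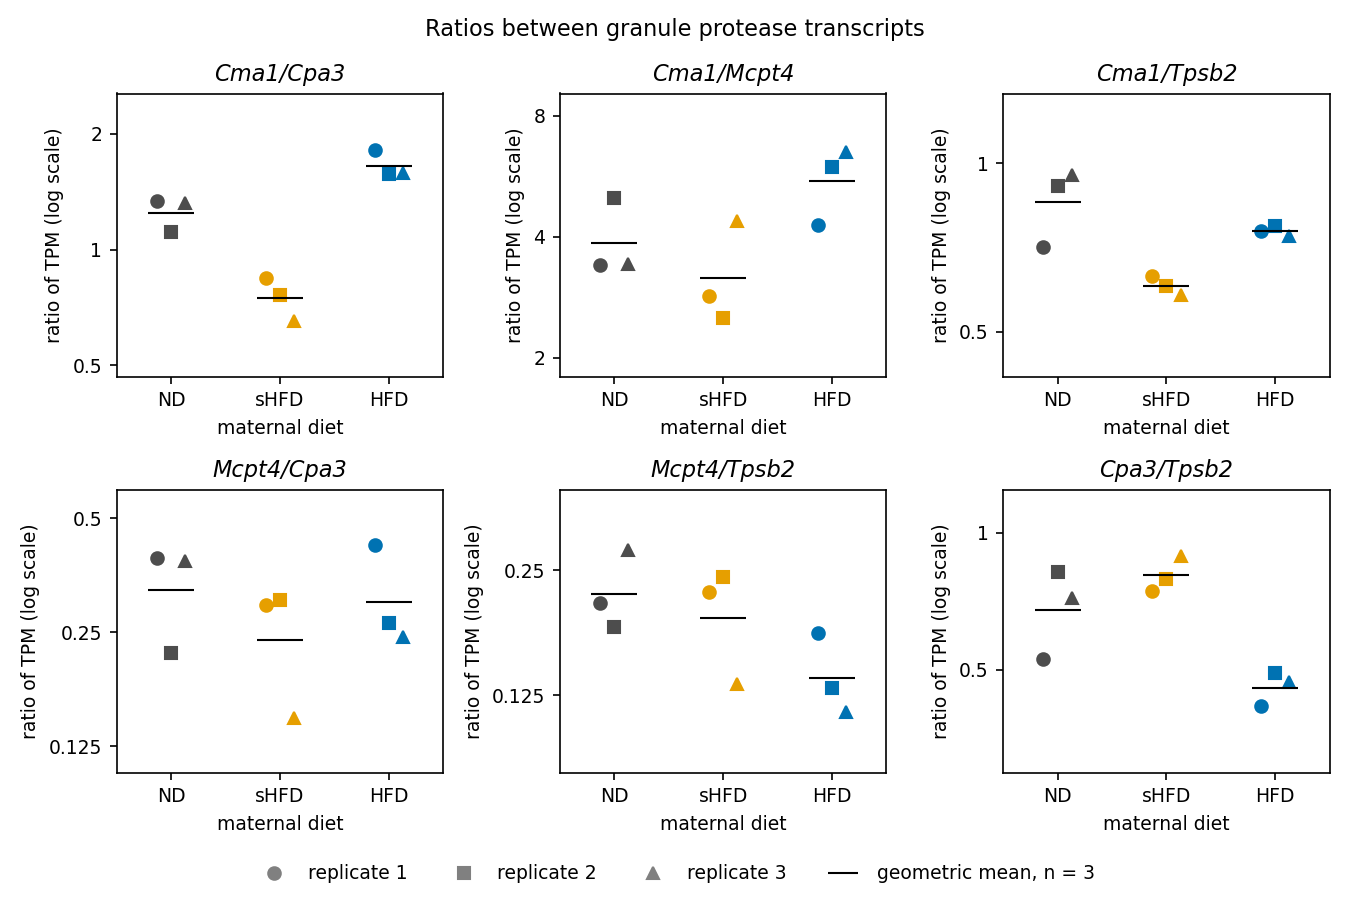
Ratios of TPM between pairs of granule protease genes (y axis, log scale) in each library by maternal diet (x axis), with bars for the geometric mean of 3 replicates. The ratio of Cma1 to Cpa3 lies between 0.654 and 0.845 in sHFD, between 1.11 and 1.34 in ND and between 1.57 and 1.82 in HFD libraries.

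Genes of the lists that follow depended on single libraries too. Of 28 named by rule that passed in HFD vs ND, Coro1a alone still passed without HFD replicate 2 and alone without ND replicate 3, while 5 passed without HFD replicate 1, 17 without ND replicate 2 and 18 without sHFD replicate 3. Median-ratio scaling left 18 of the 28, quantile normalization left 10, and fitting only the HFD and ND libraries left 8. Of 35 that passed in HFD vs sHFD, 22 still did when HFD replicate 2 was left out, and 24 when HFD replicate 1 or any sHFD replicate was.

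Beyond the members, transcripts of some receptors that mark mast cells were scarce in these isolates, while other markers of the list were not. Enpp3 averaged 18.4 ± 1.65 TPM in ND, 12.3 ± 0.624 TPM in sHFD and 14.1 ± 6.06 TPM in HFD. Slc18a2 averaged 12.0 ± 3.93, 9.4 ± 3.1 and 6.78 ± 3.06 TPM in the same diets, and neither gene passed in any comparison. Fcer1a, the IgE-binding chain of the mast cell receptor, was 0.33 to 0.79 TPM in ND libraries, 0.55 to 0.98 TPM in sHFD and 0 to 0.60 TPM in HFD, and Ms4a2, its beta chain, reached at most 0.33 TPM. Mrgprb2, the receptor for basic secretagogues of connective tissue mast cells, was 0.23 to 1.02 TPM in ND libraries, 0.40 to 0.71 TPM in sHFD and 0.14 to 0.47 TPM in HFD. Of 20 other mast cell markers 18 were measured, 7 passed the filter and none was at 0 in all libraries. Of these 7, 1 fell and 0 rose in HFD vs ND, where 9.59% of all genes tested fell and 1.28% rose. In HFD vs sHFD 1 fell and 2 rose, where 23.9% of all genes tested fell and 10.3% rose. Among so few genes, these counts are no result about the list. The gene that fell in both was Hpgds, the haematopoietic prostaglandin D synthase, at 4.14 ± 1.41 TPM in ND, 4.00 ± 1.05 TPM in sHFD and 1.75 ± 0.396 TPM in HFD (log2 -0.87 vs ND, adjusted p = 0.0452, and -0.85 vs sHFD, adjusted p = 0.0222). Those that rose against sHFD were Gata2, a factor of mast cells, progenitors and endothelium, and Srgn, the serglycin core of granules that endothelium and other blood cells also make. Gata2 was 108 ± 17.5 TPM in HFD and 40.3 ± 7.32 TPM in sHFD (log2 1.41, SE 0.31, adjusted p = 0.00574), and in ND it was 137 TPM in replicate 1 and 47.0 and 53.3 TPM in the others.

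Neighbouring protease genes were near 0. Of the 13 other genes listed for the chymase and granzyme locus 7 were measured and 0 passed the filter, with a highest value of 2.22 TPM, in Mcpt8, a basophil protease. Ctsg, cathepsin G, reached at most 0.81 TPM. Cma2 was 0.19, 0 and 0.38 TPM in ND libraries and 0 in every high-fat library, too low to compare diets. In the tryptase locus 3 of 5 others were measured and 1 passed the filter, Prss34, a protease of basophils and mucosal mast cells. It averaged 0.567 ± 0.146 TPM in HFD and 2.17 ± 0.735 TPM in ND (log2 -0.99, SE 0.23, adjusted p = 0.0208). Its HFD mean lay below the filter level, so it passed the filter through the diets where it was higher.

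Of 15 genes tested that act at or downstream of KIT and the IgE receptor, 4 fell and 0 rose in HFD against ND, where 9.59% of all genes tested fell, with a list median of -0.36 on the log2 scale beside -0.14 for all genes. Against sHFD 5 fell and 2 rose, where 23.9% of all genes tested fell and 10.3% rose, and the list median was -0.24 beside -0.16, so that this count is no result about the list. The 4 that fell against ND were Ptpn6, encoding the phosphatase SHP-1 (2.78 ± 0.965 TPM in HFD and 7.92 ± 2.12 TPM in ND), Plcg2, a phospholipase C, Lcp2, the adaptor SLP-76, and Btk, Bruton tyrosine kinase. Their log2 fold changes were -1.25, -1.11, -1.11 and -0.97 (limma adjusted p from 0.0142 to 0.0198). Lcp2 and Btk averaged 0.917 and 0.333 TPM in HFD, below the filter level, which they passed through the diets where they were higher. These 4 genes are shared with macrophages or other leukocytes. Fcer1g, the gamma chain common to Fc receptors, averaged 21.4 ± 1.19 TPM in HFD and 35.7 ± 10.2 TPM in ND (log2 -0.68, adjusted p = 0.0669).

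Of 9 mast cell transcription factor genes tested, 2 fell and 0 rose in HFD vs ND. Of all genes tested 9.59% fell and 1.28% rose there, and the list median was -0.14 on the log2 scale, as for all genes. The 2 were Spi1, which encodes PU.1, and Stat5b (log2 -0.80 and -0.79, adjusted p = 0.0343 and 0.0478 in limma), and neither passed under quantile normalization or median-ratio scaling. Against sHFD, 1 fell, Stat5b (log2 -1.20, adjusted p = 0.00314), and 2 rose, Gata2 and Cebpa (Cebpa log2 0.91, adjusted p = 0.0134). In that comparison 23.9% of all genes tested fell and 10.3% rose, so that this count is no result about the list. Kitl, the KIT ligand, was 143 ± 18.3 TPM in ND, 128 ± 44.5 TPM in sHFD and 127 ± 37.2 TPM in HFD, with adjusted p of 0.613 against ND and 0.999 against sHFD.

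Mediator genes were counted where 9.59% of all genes tested fell and 1.28% rose in HFD vs ND. In HFD vs sHFD 23.9% of all genes tested fell and 10.3% rose. Among so few genes, the counts that follow are no result about these lists. Histamine handling gave 0 calls of 3 tested in HFD vs ND with limma, against 2 at an unadjusted p under 0.05. Against sHFD, Hnmt, the methyltransferase that inactivates histamine, fell (log2 -1.10, adjusted p = 0.0204) and Slc29a4, a monoamine transporter, rose (log2 1.17, adjusted p = 0.00819). Slc18a2, the transporter that loads histamine into granules, averaged 6.78 ± 3.06 TPM in HFD and 12.0 ± 3.93 TPM in ND (log2 -0.77, adjusted p = 0.113). Of 7 eicosanoid genes, 1 fell in HFD vs ND, Hpgds, and in HFD vs sHFD 2 fell, Hpgds and Alox5, the 5-lipoxygenase (log2 -1.15, adjusted p = 0.0108), and 1 rose, Ptgs2, the inducible cyclooxygenase (log2 1.42, adjusted p = 0.00271). Of 9 granule proteoglycan genes, 0 passed in HFD vs ND with limma (0 at an unadjusted p under 0.05) and Srgn rose in HFD vs sHFD (87.6 ± 9.30 TPM in HFD and 55.4 ± 7.77 TPM in sHFD, log2 0.65, adjusted p = 0.0209). Of 4 angiotensin genes tested, Agtr1a, the main angiotensin II receptor of the mouse heart, fell in both, to 3.23 ± 1.35 TPM in HFD, against 15.1 ± 2.08 TPM in sHFD (log2 -1.96, adjusted p = 0.00127) and 10.2 ± 4.56 TPM in ND (log2 -1.37, adjusted p = 0.0168). Angiotensinogen, Agt, averaged 6.54 ± 0.144 TPM in HFD and 8.59 ± 1.55 TPM in ND (log2 -0.34, adjusted p = 0.255).

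Many markers of other blood cells were also lower in HFD, in comparisons where 9.59% of all genes tested fell against ND and 23.9% against sHFD. Of 6 pan-leukocyte genes 5 fell against ND and 4 against sHFD, with median log2 fold changes of -0.89 and -0.87, where the members' were -0.92 and -0.33. Coro1a, an actin regulator of leukocytes, averaged 8.86 ± 0.63 TPM in HFD and 24.7 ± 6.46 TPM in ND (log2 -1.36, adjusted p = 0.00489), and Ptprc, which encodes CD45, averaged 3.40 ± 0.843 TPM in HFD and 7.44 ± 1.45 TPM in ND (log2 -0.94, adjusted p = 0.0302). Of 8 macrophage markers 7 fell against ND, among them Csf1r, Adgre1, C1qa and Cx3cr1 (Cx3cr1 log2 -2.35, adjusted p = 0.0106). Against sHFD 4 of the 8 fell and 1 rose, while C1qa did not pass (log2 -0.25, adjusted p = 0.369). The marker that rose was Lyve1, the most abundant of the 8 in HFD (log2 0.84, adjusted p = 0.0058). Lyve1 did not pass against ND (log2 0.18, adjusted p = 0.544). Of 3 basophil markers tested 2 fell against ND, Itga2 and Prss34, of which Prss34 averaged below the filter level in HFD. The highest basophil-restricted Mcpt8 value was 1.69 TPM in ND, 2.22 TPM in sHFD and 0.71 TPM in HFD. Neutrophil markers gave 1 call of 6 against ND, S100a9, and 2 against sHFD, S100a8 and S100a9. At an unadjusted limma p under 0.05 there were 4 and 3, and the list medians were -0.92 and -0.71 on the log2 scale. Ngp and Camp, granule genes of immature neutrophils, did not pass (log2 -0.75 and -1.48 against ND, adjusted p = 0.19 and 0.0563). The lymphocyte gene Cd79a was the only 1 of 8 to pass the filter and fell in both comparisons. It averaged 2.42 TPM in ND, 3.84 TPM in sHFD and 0.84 TPM in HFD. Its HFD level lay below the filter, which it passed through the diets where it was higher. Its fall is therefore no result about lymphocytes. The part of other leukocytes in the members' differences was not tested.

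KIT is also made by melanocytes, and melanocyte genes were present. Of 6 melanocyte markers 3 fell against ND and against sHFD, Dct, Tyrp1 and Pmel, where 9.59% and 23.9% of all genes tested fell. The summed level of all 6 was 30.0 to 55 TPM in ND, 33.9 to 41.6 TPM in sHFD and 28.4 to 36.3 TPM in HFD. Tyrp1, a pigment enzyme, averaged 1.24 ± 0.711 TPM in HFD and 3.51 ± 0.724 TPM in ND (log2 -1.04, adjusted p = 0.0236). Mlana, a melanosome gene and the most abundant of the 6 in HFD, went the other way without passing, at 17.7 ± 4.11 TPM in HFD and 10.7 ± 4.78 TPM in ND (log2 0.72, adjusted p = 0.114), and its log2 difference from sHFD was 0.66 (adjusted p = 0.0912). The part of melanocytes in the level of Kit was not tested.

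Markers of the structural cells of the heart were counted in the same way. Of all genes tested 9.59% fell and 1.28% rose in HFD vs ND, and 23.9% fell and 10.3% rose in HFD vs sHFD. Among so few markers, the counts below are no result about these cells. None of 10 cardiomyocyte, 6 endothelial and 6 fibroblast markers passed limma's test in HFD vs ND, against 0, 2 and 2 at an unadjusted p under 0.05. Against sHFD 2 cardiomyocyte markers fell, Myl2 and Pln (log2 -1.17 and -1.20), the endothelial receptor gene Kdr fell (log2 -0.46) and 0 fibroblast markers passed, with 1 at an unadjusted p under 0.05. Of 6 epicardial markers 1 rose and 1 fell against ND, Upk1b and Aldh1a2, and 2 rose and 1 fell against sHFD. Skin and airway epithelial markers gave 0 calls of 4 in either comparison with limma, against 0 and 1 at an unadjusted p under 0.05, although Scgb1a1, an airway secretory gene, reached 17.2 TPM in HFD replicate 3.

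**Figure D4:**
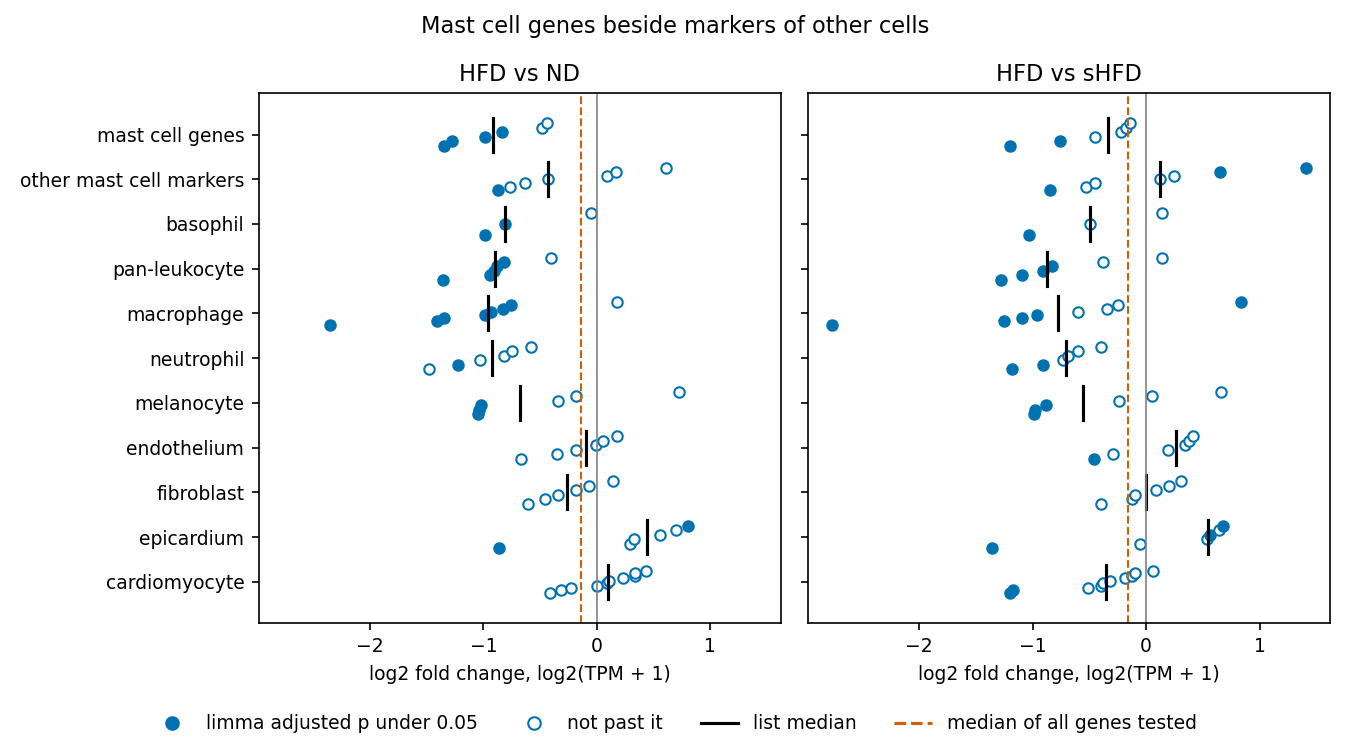
Log2 fold changes of log2(TPM + 1) (x axis) of the mast cell genes and of marker lists for other cells (rows) in HFD vs ND and HFD vs sHFD, where each point is a gene that passed the filter and filled points passed an adjusted p of 0.05. List medians (bars) are -0.92 for mast cell genes, -0.89 for pan-leukocyte and -0.96 for macrophage markers in HFD vs ND, where the median of all genes tested (dashed line) is -0.14.

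The genes whose profile over the 9 libraries was most like the mean of the members were Ccdc3, Twist2, Chn2, Bace2, Apobec3, Fcrls, Nrp2 and Bcs1l. Likeness was the root mean square difference between standardized log2(TPM + 1) profiles, among 10941 genes that averaged 5 TPM or more and had a symbol other than a clone or predicted name, and it ran from 0.24 SD for Ccdc3 to 0.39 SD for Bcs1l. Of the members themselves Tpsb2 was nearest to their mean, at 0.29 SD, and Kit farthest, at 0.64 SD, which ranked it 525 of 10941. Twist2, a mesenchymal transcription factor, averaged 10.4 ± 2.25 TPM in ND, 7.87 ± 0.953 TPM in sHFD and 5.09 ± 1.16 TPM in HFD. Fcrls, a receptor-like gene of macrophages and microglia, averaged 10.1 ± 1.37 TPM in ND, 7.44 ± 2.42 TPM in sHFD and 4.43 ± 0.242 TPM in HFD.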

How the data were processed

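The authors deposited 1 table of TPM for 18738 genes, all of the mRNA type, in which each of 9 columns sums to 1000000 within rounding. The submitters' processing notes name RSEM 1.3.1 and GRCm38 without a role, and no source used here gives the aligner or annotation. The libraries were made from mRNA isolated from total RNA, per the labels' protocols. TPM keeps no read number, so depth and its precision are unknown. Columns named CON, MID and HIGH were read as ND, sHFD and HFD with their replicate numbers, and no 2 libraries were identical.

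Values were taken as log2(TPM + 1), genes averaging 1 TPM or more were kept, and the 3 diets were fitted to all 9 libraries in limma 3.58.1 (R 4.3.3) with an intensity trend and 6 residual degrees of freedom. Two-sided p-values were adjusted over all genes tested after Benjamini and Hochberg. The fit was checked on simulated data. Ratios of TPM were compared by exact permutation. Fold changes on this scale understate those of low genes.

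The members and the gene lists were chosen with earlier results of these data known. From each list the genes that passed in any comparison are named where there were 6 or fewer, otherwise the 4 of smallest p in HFD vs ND, and in a list with none the 2 of highest mean, and some other list genes are named for their role after their values were seen. Results of some list genes are not reported here. The 8 genes nearest to the members' mean profile are given. Positions and upstream sequence come from RefSeq tables of GRCm38.p6, in which 5 of the 6 members matched an upstream sequence and all 6 a position.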

Additional observations from a re-analysis of the deposited data

How the results depend on the processing

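Depth is unknown for TPM, so that low genes such as Fcer1a and Mcpt8 cannot be given a detection limit. The members called in HFD vs ND numbered 4, and 0 to 4 with a library left out. In HFD vs sHFD they numbered 2, 1 to 2 with a library left out, 1 under quantile normalization and 3 when only 2 diets were fitted. In sHFD vs ND they numbered 0 under every setting. Genes called in HFD vs ND numbered 1484, 32 to 3842 with a library left out, 759 with no filter and 420 when only 2 diets were fitted. In HFD vs sHFD they numbered 4665, 2696 to 5458 with a library left out and 5616 when only 2 diets were fitted. In sHFD vs ND they numbered 1, 0 to 360 with a library left out, 0 with a pseudocount of 0.1, with no filter, with a mean of at least 5 TPM and with the replicate block, and 2 when only 2 diets were fitted. Signs turned for uncalled members only: Cpa3 in sHFD vs ND without ND replicate 2 (0.04) and without sHFD replicate 1 (0.01), within -0.3 to 0.04 over the fits with a library left out, and in HFD vs sHFD Cma1 under median-ratio scaling (0.02) and quantile normalization (0.11), Hdc under quantile normalization (0.07) and Kit without sHFD replicate 2 (0.08), within -0.44 to 0.08 over such fits. The causes were not tested.

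Replicate numbers recur in each diet. Deviations of same-numbered libraries from their diet means had correlations across genes from -0.287 (HFD and ND, replicate 3) to 0.413 (HFD and sHFD, replicate 1). With 3 libraries per diet these values cannot tell whether a shared number marks a shared batch or pairing. With the replicate block the count was 1686 for HFD against ND, 4722 for HFD against sHFD, and the same members were called, 4 and 2.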
